A study of Mus musculus with 12 samples.

Results

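Activated mouse CD8 T cells cultured with the thiol antioxidant N-acetylcysteine (NAC) were compared with and without genipin. The comparison rests on the 3 libraries titled genipin+NAC treatment and the 3 titled NAC treatment, which are 6 of the 12 libraries of the series, and it covers every gene with enough counts to be tested. The donors were pmel-1 mice with the wild-type Ucp2 gene, and their CD8 T cells carry a transgenic receptor for a peptide of gp100, a melanoma antigen. According to the labels, the cells were activated with that peptide or with antibodies to CD3 and CD28, without the route being given per library, and were then grown for 4 days with IL-2 at 10 ng/ml. The other groups, vehicle (culture medium) and genipin alone, with 3 libraries each, serve here only to set the genipin difference without NAC beside the one with NAC. Doses, time of exposure, age of the mice and the origin of the replicates are not stated, so p-values reflect the spread among these libraries alone, and that spread may be technical.

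Genipin is a plant compound used as an inhibitor of Ucp2, a carrier of the mitochondrial inner membrane. NAC is taken up by cells and supplies cysteine, the building block that limits the synthesis of glutathione. CD8 T cells that divide in IL-2 draw on glycolysis and on lipid, nucleotide and amino acid synthesis, and acquire granules with granzymes and perforin as they become killer cells. Several regulators of these programmes respond to oxygen, amino acid supply or redox state: the hypoxia-inducible factor (HIF) drives glycolytic and mitophagy genes, ATF4 drives amino acid genes of the integrated stress response, and sterol-sensing factors drive cholesterol synthesis.

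The 6 libraries held 20838894 to 31098648 expected counts, the estimated number of reads per gene summed over genes, and 13636 genes had counts enough for a test across the 12 libraries. Replicate 1 of the genipin+NAC group differed more from its partners than other replicates did: the chi-square of its counts, divided by the degrees of freedom, came to 7.23 with replicate 2 and to 8.25 with replicate 3, whereas replicates 2 and 3 gave 2.11 and the pairs of NAC libraries 2.45 to 2.59. Results were therefore also computed without it, and calls and counts that shifted are given beside the results they touch. The defining transcripts of CD8 T cells were abundant in every library, with the 8 markers together at 4617 to 4668 CPM (counts scaled to a common library total) with both compounds and 3741 to 3789 CPM with NAC alone. Levels in CPM were scaled for library composition and compare libraries for a gene, not genes with each other.

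With NAC present, genipin lowered the transcripts of mitosis, DNA replication, amino acid supply and sterol synthesis, and raised those of HIF targets, glycolysis, cytotoxic granules, chemokines and early responses to the T cell receptor. By edgeR's quasi-likelihood test with a Benjamini-Hochberg adjusted p under 0.05, called here the test, 7239 of 13636 genes differed between the groups, 53.1% of all tested. The calls were evenly split, with 3632 genes higher (26.6%) and 3607 lower (26.5%) in cells that received both compounds. Counts of list members given below are to be read beside these shares. Without normalization factors the split was 2650 higher and 4733 lower. Most differences were small: the median absolute log2 fold change was 0.23, and a change of at least 2-fold was reached by 805 genes (5.90%), 468 higher (3.43%) and 337 lower (2.47%). Leaving out genipin+NAC replicate 1 gave 7222 calls, of which 6609 were shared with the full set, all in the same direction. In what follows a value in parentheses is the log2 fold change ± SE of genipin+NAC against NAC, with n = 3 libraries in each group, and a positive value means higher with genipin. Since RNA was taken from whole cultures, fewer cells of a kind and less RNA per cell cannot be told apart.

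Ucp2 itself (ENSMUSG00000033685.13, chromosome 7, 100493337 to 100502020) was abundant and slightly higher when genipin was added to NAC. Ucp2 was at 505, 562 and 563 CPM with both compounds and at 491, 484 and 477 CPM with NAC alone. The groups did not overlap, which held for 56.7% of all tested genes, and the difference was small (0.17 ± 0.03, adjusted p = 3.39e-04). In cells without NAC the genipin difference had the opposite sign (-0.27 ± 0.03), and the 2 differences were unequal by the interaction test, which asks whether the genipin difference with NAC is another than without it (interaction 0.44 ± 0.05, adjusted p = 1.40e-07). Without normalization factors the difference with NAC was 0.088 (adjusted p = 0.0308). Transcript levels do not measure inhibition of the carrier protein.

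Among the 15 genes with the largest rises were receptors and effector molecules of T cells. Absence of overlap between the groups was a condition for this ranking and held for 56.7% of all tested genes. Cxcr6 was at 376, 335 and 332 CPM with both compounds and at 45.2, 42.9 and 44.02 CPM with NAC alone. Cxcr6 (ENSMUSG00000048521.8, chromosome 9, 123806475 to 123811760), a chemokine receptor of effector and tissue-resident T cells, had the largest rise by the naming rule (2.98 ± 0.05). Pdcd1 was at 242, 255 and 258 CPM with both compounds and at 45.5, 43.3 and 43.7 CPM with NAC alone. Pdcd1 (ENSMUSG00000026285.7, chromosome 1, 94038305 to 94052553), which encodes the inhibitory receptor PD-1, was thus several times higher in each library with both compounds than in any with NAC alone (2.51 ± 0.04). Ccl5 was at 114, 115 and 117 CPM with both compounds and at 20.8, 19.7 and 21.6 CPM with NAC alone. The chemokine Ccl5 (ENSMUSG00000035042.2, chromosome 11, 83525778 to 83530518) was higher by a similar amount (2.48 ± 0.04). The receptor-induced transcription factor Egr3 (2.97 ± 0.10), the semaphorin Sema6d (2.80 ± 0.12), the junction scaffold Tjp1 (2.76 ± 0.06), the Fc receptor Fcgr3 (2.66 ± 0.15), the serpin Serpinb9b (2.28 ± 0.08), Gng11 (2.27 ± 0.08), Dixdc1 (2.24 ± 0.07) and Igsf5 (2.20 ± 0.08) rose as well. The inducible nitric oxide synthase Nos2 rose (2.21 ± 0.10) from a low level. Nos2 was at 20.2, 21.8 and 24.3 CPM with both compounds and at 5.24, 4.65 and 4.53 CPM with NAC alone. Kit (ENSMUSG00000005672.12, chromosome 5, 75574916 to 75656722), the stem cell factor receptor and a marker of mast cells, rose (2.12 ± 0.03) and stood higher than in the groups without NAC. Kit was at 237, 239.5 and 235 CPM with both compounds, 54, 55.1 and 53.99 with NAC alone, 34.1, 34.3 and 33.4 with genipin alone and 15.4, 14.4 and 16 with vehicle.

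**Figure D1:**
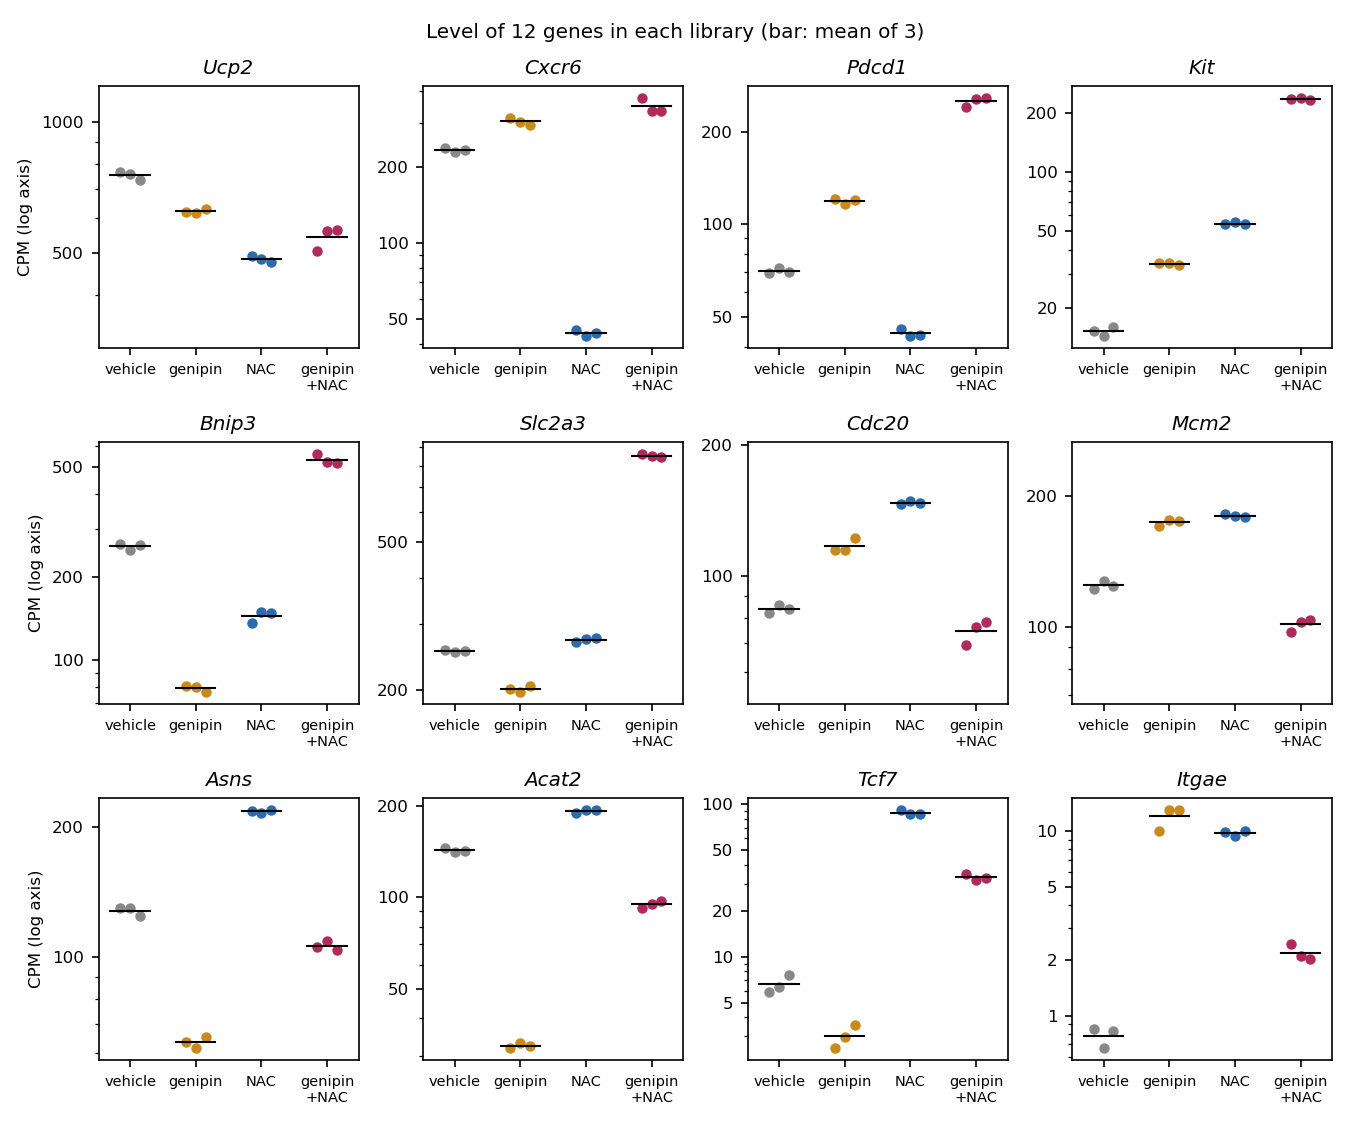
Level of 12 genes in each of the 12 libraries, in CPM scaled for library composition (log axis), by group; each point is 1 library and each bar the mean of 3. In all 12 genes the 3 genipin+NAC libraries lie apart from the 3 NAC libraries. The same held for 56.7% of all tested genes, and it was a condition for naming the largest rises and falls.

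Markers of other blood cells were examined because cultures started from mouse CD8 T cells can hold others. The 7 mast cell and basophil markers summed to 252 to 256 CPM with both compounds and 58.01 to 59.95 CPM with NAC alone. Of these markers 3 were tested and all 3 rose, Kit, Cpa3 (1.98 ± 0.11) and Mcpt8 (1.75 ± 0.29). Kit made up most of the sum, and Mcpt8 was low, with 39, 24 and 39 counts against 9, 7 and 13. The untested members were nearly absent: Fcer1a, Gata2, Tpsb2 and Mcpt4 had at most 1, 2, 3 and 2 counts in any of the 12 libraries. The 6 natural killer markers summed to 21.7 to 24.03 against 9.37 to 10.4 CPM, with 4 of 5 tested members higher, Fcer1g (1.21 ± 0.08) and Klrb1c (1.75 ± 0.17) among them. Klrb1f went the other way, with 9, 5 and 9 counts against 13, 9 and 18, and 1 member was called lower without NAC replicate 2. Ncr1 had 4, 4 and 3 counts against 0, 0 and 0, and Klra8 had at most 1 in any library. The 10 dendritic cell markers summed to 105 to 110.3 against 81.6 to 87.9 CPM, with 2 of 7 tested members higher and 4 lower. B cell markers were at 160.4 to 161 against 193 to 206 CPM, nearly all from Ighm (-0.30 ± 0.03), while Ms4a1, Cd79a and Pax5 had at most 8 counts in any of the 12 libraries. Of the 4 tested B cell markers 2 were called lower and 1 higher. The higher one was Ebf1, with 37, 24 and 42 counts against 12, 17 and 13. The 3 CD4 T cell markers summed to 51.9 to 61.6 against 64.7 to 69.5 CPM, and the 2 tested members were called lower. Only 1 was called lower without genipin+NAC replicate 1, NAC replicate 2 or NAC replicate 3. The 9 macrophage and monocyte markers summed to 2.09 to 2.57 against 0.76 to 0.94 CPM. Their only tested member, Cd14, was called higher (log2 fold change 1.96), with 56, 54 and 63 counts against 10, 18 and 15. Neutrophil markers stayed at or under 0.322 CPM in the 6 libraries. These marker levels move with the groups, and their part in the rises of chemokine, integrin and Fc receptor genes was not tested.

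The largest falls were in a cytokine, an integrin and several genes of amino acid metabolism and membranes. Il24 was at 12.4, 13.3 and 13.3 CPM with both compounds and at 78.2, 76.7 and 80.8 CPM with NAC alone. Il24 (ENSMUSG00000026420.16, chromosome 1, 130882074 to 130887454), a cytokine of the IL-10 family, had the largest fall by the naming rule (-2.59 ± 0.06). Its genipin difference without NAC was of similar size (-2.67 ± 0.08), with an interaction of 0.077 ± 0.10 (adjusted p = 0.552). Itgae was at 2.45, 2.10 and 2.03 CPM with both compounds, 9.84, 9.41 and 9.98 with NAC alone, 10.02, 12.95 and 13.02 with genipin alone and 0.845, 0.668 and 0.822 with vehicle. Itgae (ENSMUSG00000005947.11, chromosome 11, 73090583 to 73147446), which encodes CD103, the alpha chain of an E-cadherin receptor, therefore fell with genipin where NAC was present (-2.16 ± 0.13) and rose where it was absent (3.93 ± 0.16). The adenylyl cyclase Adcy6 (-1.67 ± 0.07), the tetraspanin Cd81 (-1.61 ± 0.10), the glycine transporter Slc6a9 (-1.72 ± 0.13), the alanine aminotransferase Gpt2 (-1.57 ± 0.08), the steroid side-chain cleavage enzyme Cyp11a1 (-1.54 ± 0.07) and the insulin-like growth factor binding protein Igfbp4 (-1.84 ± 0.09) were lower. So were Zbtb18 (-1.87 ± 0.12), the tubulin Tubb2b (-1.92 ± 0.15), the calponin Cnn3 (-1.55 ± 0.09), the ETS factor Etv5 (-1.48 ± 0.11), Chst15 (-1.52 ± 0.18) and Pld4 (-1.55 ± 0.13).

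Cell division genes fell together. Of 30 mitosis genes, all 30 fell with genipin in NAC-treated cells, with a median log2 fold change of -0.72 and a range from -0.98 to -0.32, against 26.5% of all tested genes called lower and a median of 0.0087 over all genes. Cdc20 was at 69.3, 76.4 and 78.3 CPM with both compounds and at 146, 149 and 147 CPM with NAC alone. The anaphase activator Cdc20 (ENSMUSG00000006398.15, chromosome 4, 118432901 to 118437352) showed the widest gap of the list (-0.98 ± 0.04, adjusted p = 1.85e-14). Plk1 was at 35.4, 34.4 and 36.9 CPM with both compounds and at 70.9, 66.3 and 71.96 CPM with NAC alone. The mitotic kinase Plk1 (-0.97 ± 0.05), the cyclin Ccnb1 (-0.85 ± 0.03), the kinesin Kif20a (-0.77 ± 0.04), the spindle midzone protein Prc1 (-0.87 ± 0.04) and the ubiquitin-conjugating enzyme Ube2c (-0.70 ± 0.03) fell to a similar extent. Ccnb1 was at 78.8, 78.2 and 78.3 CPM with both compounds, 138, 143 and 141 with NAC alone, 159, 155 and 153 with genipin alone and 99.4, 102 and 103 with vehicle. In the 4 groups, Ccnb1 was therefore higher with genipin than with vehicle in the absence of NAC, and lower with genipin in its presence. Without NAC all 30 mitosis genes were higher with genipin (median 0.65), against 29.9% of all genes called higher there, and for all 30 the interaction was called lower, against 24.0% of all genes.

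The upstream regions of this list are shown because members of such a set that move together often share short promoter elements: the CCAAT box bound by NF-Y and the cell cycle homology element TTTGAA bound by the MuvB complexes. RefSeq windows on GRCm38.p6, from 250 bases before to 50 after a transcript start, were on hand for 25 of the 30 genes, taking the window listed first for each gene. Searched on both strands, CCAAT was present in 22 of 25 windows (88%), against 39.2% of 9848 windows of tested genes, and TTTGAA in 19 (76%), against 12.2%. The variant TTCGAA was present in 3 (12%), against 2.2%. A match describes the letters and shows no binding. The windows of the 3 members with the smallest p among those with a window follow, 5′ to 3′ on the coding strand, with matches to any of the 3 motifs in capitals.
Ccnb1, chr13:100786437-100786736, strand -: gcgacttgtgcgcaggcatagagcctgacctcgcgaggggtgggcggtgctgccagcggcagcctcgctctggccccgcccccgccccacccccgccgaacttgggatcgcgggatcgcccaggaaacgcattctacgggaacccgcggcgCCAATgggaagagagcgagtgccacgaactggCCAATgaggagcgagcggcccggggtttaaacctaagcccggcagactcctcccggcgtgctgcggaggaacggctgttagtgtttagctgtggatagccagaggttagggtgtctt
Cdc20, chr4:118437294-118437593, strand -: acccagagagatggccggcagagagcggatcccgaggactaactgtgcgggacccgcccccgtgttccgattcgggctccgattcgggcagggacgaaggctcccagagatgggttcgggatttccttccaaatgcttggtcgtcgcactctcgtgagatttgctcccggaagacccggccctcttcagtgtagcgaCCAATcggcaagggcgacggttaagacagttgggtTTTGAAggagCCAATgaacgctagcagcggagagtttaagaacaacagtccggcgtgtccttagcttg
Prc1, chr7:80294201-80294500, strand +: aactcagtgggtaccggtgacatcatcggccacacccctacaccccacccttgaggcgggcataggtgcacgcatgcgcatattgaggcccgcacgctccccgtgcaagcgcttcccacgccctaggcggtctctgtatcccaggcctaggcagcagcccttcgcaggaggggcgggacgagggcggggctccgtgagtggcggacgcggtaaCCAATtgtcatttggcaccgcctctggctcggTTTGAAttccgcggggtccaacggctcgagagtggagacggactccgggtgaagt
Cdc20 and Prc1 have both CCAAT and TTTGAA, while the Ccnb1 window holds 2 matches to CCAAT and none to the other motifs.

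DNA replication genes fell in 30 of 33 cases and rose in 1, with a median of -0.46. The licensing factor Cdc6 (-0.95 ± 0.06), the helicase subunits Mcm2 (-0.83 ± 0.03) and Mcm3 (-0.59 ± 0.03), the ribonucleotide reductase subunit Rrm2 (-0.64 ± 0.03) and the methylated-DNA reader Uhrf1 (-0.69 ± 0.03) were examples, and the polymerase subunit Pola1 was the member that rose (0.14 ± 0.05). That rise was lost without genipin+NAC replicate 1 (adjusted p = 0.121), NAC replicate 1 (0.0566) or NAC replicate 3 (0.135), without normalization factors, and with an offset for the effective length of each gene. Mcm2 was at 97.6, 103 and 104 CPM with both compounds and at 182, 180.2 and 179 CPM with NAC alone. Every NAC library thus exceeded every genipin+NAC library for Mcm2. Without NAC 30 of the 33 were higher with genipin and 1 lower, and the interaction was called lower for all 33. Of 14 tested CDK inhibitors, G1 cyclins and their kinases 8 fell, with the phosphatase Cdc25a at -1.01 ± 0.06 and the cyclin Ccne1 at -0.76 ± 0.05, and 3 rose, which were the inhibitors Cdkn2a (0.58 ± 0.09), Cdkn2b (0.67 ± 0.13) and Cdkn2d (0.30 ± 0.04).

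With NAC present, growth genes fell for the most part. The list of MYC and ribosome biogenesis had 16 falls and 3 rises among 24 genes (median -0.48). The nucleolar proteins Gnl3 (-1.15 ± 0.05), Nolc1 (-1.0 ± 0.03), Nop56 (-0.78 ± 0.03) and Nop58 (-0.77 ± 0.04) led the falls, whereas the MYC relatives Mycn (0.73 ± 0.06) and Mxd4 (0.60 ± 0.04) and their partner Max (0.25 ± 0.05) rose. With the effective length offset the value of Max was -0.097, not called. Without NAC 5 of these 24 genes were higher with genipin and 12 lower. Of 17 genes of purine and pyrimidine synthesis 14 fell and 1 rose (median -0.46), and none was called higher without NAC replicate 1 or without normalization factors. The falls included the CTP synthase Ctps (-0.90 ± 0.05), the amidotransferase Ppat (-0.68 ± 0.04) and the purine enzymes Gart (-0.59 ± 0.03) and Atic (-0.47 ± 0.03). In cells without NAC 2 of the 17 were higher with genipin and 12 lower. Polyamine and arginine genes were split, with 5 of 10 tested higher and 4 lower (median 0.059), and 3 higher with the effective length offset. The spermidine synthase Srm fell (-1.08 ± 0.05) together with Amd1 (-0.64 ± 0.05), which makes the aminopropyl donor, while Sat1 (0.84 ± 0.05), which acetylates polyamines for breakdown, rose. The antizyme Oaz1 (0.17 ± 0.04), which binds ornithine decarboxylase, rose slightly. That decarboxylase, Odc1, just passed the test (0.065 ± 0.03, adjusted p = 0.0417), a call lost when any library of the 6 other than genipin+NAC replicate 1 was left out and under most other settings, and its value was -0.014 without normalization factors. Cytosolic ribosomal protein genes went the other way by a small step: 32 of 40 rose and none fell, with a median of 0.15, and Rps24 (0.28 ± 0.03) and Rps18 (0.26 ± 0.03) were examples. Without normalization factors 19 of the 40 were called higher and 1 lower. Without NAC, 39 of the 40 were lower with genipin, against 31.0% of all genes, and the interaction was called higher for all 40.

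**Figure D2:**
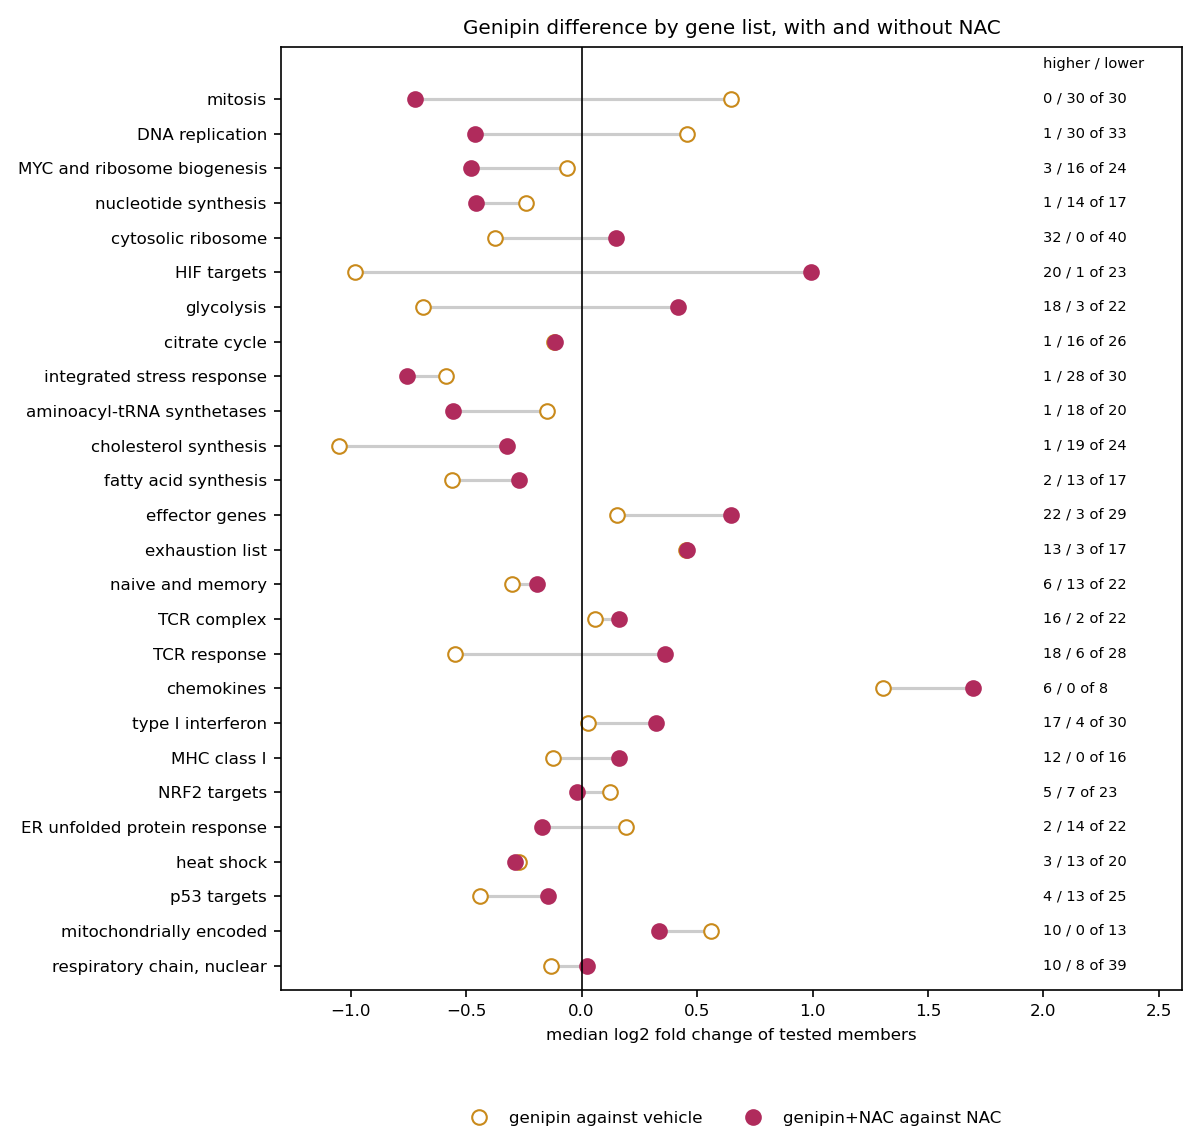
Median log2 fold change of the tested members of 26 gene lists for genipin+NAC against NAC (filled circles) and for genipin against vehicle (open circles); the numbers at the right are members called higher and lower of those tested in genipin+NAC against NAC. Mitosis and replication lie on opposite sides of 0 in the 2 comparisons, as do HIF targets and glycolysis, whereas the integrated stress response and cholesterol synthesis lie below 0 in both.

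HIF targets and glycolysis rose. Of 23 tested HIF targets outside the glycolytic chain 20 rose and 1 fell, with a median of 0.995, against 26.6% of all genes called higher. Bnip3 was at 559.7, 522 and 519 CPM with both compounds, 137, 150.1 and 148 with NAC alone, 80.5, 80.1 and 76.8 with genipin alone and 263, 252 and 262 with vehicle. The mitophagy receptor Bnip3 (ENSMUSG00000078566.8, chromosome 7, 138890836 to 138909519) rose (1.88 ± 0.04, adjusted p = 7.65e-20), and its level with both compounds exceeded that of the other 3 groups. Ankrd37 was at 28.03, 32.3 and 30.1 CPM with both compounds, 6.58, 7.40 and 7.01 with NAC alone, 3.33, 3.62 and 3.46 with genipin alone and 9.93, 11.5 and 9.68 with vehicle. Ankrd37 (2.10 ± 0.08) followed the same order. The oxygen-sensing hydroxylases Egln1 (1.46 ± 0.03) and Egln3 (1.46 ± 0.03), the disulfide-forming oxidase Ero1l (1.44 ± 0.04), Ndrg1 (1.53 ± 0.03) and the mitochondrial protein Mgarp (1.20 ± 0.08) rose, while carbonic anhydrase Car9 fell (-0.49 ± 0.14). Without NAC 20 of these 23 genes were lower with genipin and 2 higher, and the interaction was called higher for 22 of 23, against 27.4% of all genes.

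Promoter windows of HIF targets are shown for the hypoxia response core ACGTG. Windows were on hand for 18 of the 23 genes, and ACGTG was present on either strand in 10 of them (55.6%), against 26.2% of all windows of tested genes. The related core GCGTG was present in 13 (72.2%), against 51.8%. The windows of the 3 members with the smallest p among those with a window follow, and capitals mark ACGTG on either strand; Ndrg1, second by p over the whole list, had no window on hand.
Bnip3, chr7:138909457-138909756, strand -: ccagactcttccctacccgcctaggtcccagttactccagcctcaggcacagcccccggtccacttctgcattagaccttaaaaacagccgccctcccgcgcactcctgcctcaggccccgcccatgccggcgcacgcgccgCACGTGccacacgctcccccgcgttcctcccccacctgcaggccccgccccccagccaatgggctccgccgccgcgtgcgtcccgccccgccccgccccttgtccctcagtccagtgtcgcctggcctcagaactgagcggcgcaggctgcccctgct
Egln3, chr12:54203825-54204124, strand -: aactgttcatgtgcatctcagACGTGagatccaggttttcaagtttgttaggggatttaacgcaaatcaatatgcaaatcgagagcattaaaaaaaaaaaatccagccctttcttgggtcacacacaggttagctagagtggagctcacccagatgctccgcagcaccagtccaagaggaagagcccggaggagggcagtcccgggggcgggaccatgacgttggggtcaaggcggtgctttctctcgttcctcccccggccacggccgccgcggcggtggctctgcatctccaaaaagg
Egln1, chr8:124949205-124949504, strand -: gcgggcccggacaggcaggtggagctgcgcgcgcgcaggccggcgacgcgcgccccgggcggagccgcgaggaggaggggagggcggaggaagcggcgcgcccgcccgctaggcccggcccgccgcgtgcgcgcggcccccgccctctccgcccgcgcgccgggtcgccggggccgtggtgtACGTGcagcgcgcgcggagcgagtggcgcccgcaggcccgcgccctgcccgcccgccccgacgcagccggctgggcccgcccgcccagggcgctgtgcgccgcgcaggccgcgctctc
The capitals in Bnip3 are 2 overlapping matches on opposite strands, and Egln3 and Egln1 have 1 match each.

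Of 22 genes of glucose transport and glycolysis 18 rose and 3 fell, with a median of 0.42. The largest rises were at the membrane: the lactate exporter Slc16a3 (1.76 ± 0.04) and the glucose transporters Slc2a3 (1.64 ± 0.03) and Slc2a1 (1.15 ± 0.04). Slc2a3 was at 860.3, 848 and 842 CPM with both compounds, 269.5, 274 and 275 with NAC alone, 202, 198 and 205 with genipin alone and 257, 254 and 255 with vehicle. For Slc2a3 the libraries with both compounds lay above the other 9. Among the enzymes, the phosphofructokinase Pfkl (1.09 ± 0.04) and the mutase Pgam1 (0.70 ± 0.03) rose, whereas the lactate transporter Slc16a1 (-0.48 ± 0.04), the enolase Eno2 (-0.61 ± 0.20) and the bifunctional enzyme Pfkfb4 (-0.33 ± 0.10) fell. The call for Eno2 was lost without replicate 1 of genipin+NAC (adjusted p = 0.0541) or of NAC (0.0671), and those for Eno2 and Pfkfb4 were lost with the effective length offset. Without NAC 21 of the 22 were lower with genipin and none higher, and 21 had an interaction called higher. The citrate cycle list did not follow: of 26 tested genes 16 fell and 1 rose (median -0.11), with no rise called without NAC replicate 1, without normalization factors or with the effective length offset. The falls included the transaminase Got1 (-0.81 ± 0.04), citrate synthase Cs (-0.40 ± 0.03) and the isocitrate dehydrogenase Idh2 (-0.52 ± 0.06).

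Genes of amino acid supply fell. The integrated stress response list had 28 falls and 1 rise among 30 genes (median -0.76). Asns was at 106, 109 and 104 CPM with both compounds and at 219, 215 and 219 CPM with NAC alone. The asparagine synthetase Asns (-1.04 ± 0.03) fell by about as much as the neutral and cationic amino acid transporters Slc7a5 (-1.10 ± 0.04) and Slc7a1 (-0.99 ± 0.04). The serine synthesis enzyme Psat1 (-0.76 ± 0.03) and the proline synthesis enzyme Aldh18a1 (-0.76 ± 0.03) fell too, and so did Cth (-1.57 ± 0.18), which makes cysteine from cystathionine, at low counts. The lipoprotein receptor Vldlr was the member that rose (0.89 ± 0.23), which was not called with the effective length offset. Of 20 cytosolic aminoacyl-tRNA synthetases, 18 fell and 1 rose (median -0.56), with the alanine enzyme Aars at -0.84 ± 0.03, the threonine enzyme Tars at -0.75 ± 0.04 and the isoleucine enzyme Iars at -0.63 ± 0.03, and the aspartate enzyme Dars higher (0.22 ± 0.04). Aars was at 146, 157 and 154 CPM with both compounds, 278, 271 and 270.3 with NAC alone, 188, 191 and 192 with genipin alone and 201, 198 and 193 with vehicle. Aars was thus highest with NAC alone. Without NAC 24 of the 30 stress response genes were lower with genipin as well, and the interaction was split, 12 higher and 11 lower. For the synthetases 15 of 20 had an interaction called lower, so the fall was larger with NAC for these, against 24.0% of all genes.

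Lipid synthesis fell in both settings. Among 24 genes of cholesterol synthesis and uptake, genipin given with NAC was followed by 19 falls and 1 rise (median -0.32). Acat2 was at 91.97, 94.8 and 97.3 CPM with both compounds, 190.3, 194 and 194 with NAC alone, 31.8, 33.04 and 32.3 with genipin alone and 145, 141 and 143 with vehicle. The thiolase Acat2 fell the most (-1.02 ± 0.03), followed by Hsd17b7 (-0.79 ± 0.05), and the reductase Dhcr7 (-0.59 ± 0.04) fell by less. The regulator Srebf2 was the member that rose (0.12 ± 0.04), a call lost without normalization factors, with the effective length offset, and without genipin+NAC replicate 2 (adjusted p = 0.117), genipin+NAC replicate 3 (0.0940) or NAC replicate 2 (0.0603). Without genipin+NAC replicate 1 the rises numbered 2. The median without NAC was -1.05, and 20 of 24 genes had an interaction called higher, so the fall was smaller with NAC for genes such as Acat2 (-1.02 ± 0.03 with NAC and -2.14 ± 0.04 without it, interaction 1.12 ± 0.05). Of 17 genes of fatty acid synthesis 13 fell, led in p by the synthase Fasn (-0.99 ± 0.04), and 2 rose, the malic enzyme Me1 (0.81 ± 0.10) and the acetate ligase Acss2 (0.26 ± 0.04). Of 20 genes of fatty acid oxidation 4 rose, 4 fell and 12 were not called, so the called share of 40% lay below the 53.1% of all genes. The falls numbered 2 without NAC replicate 1 or 2 and 9 without normalization factors.

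**Figure D3:**
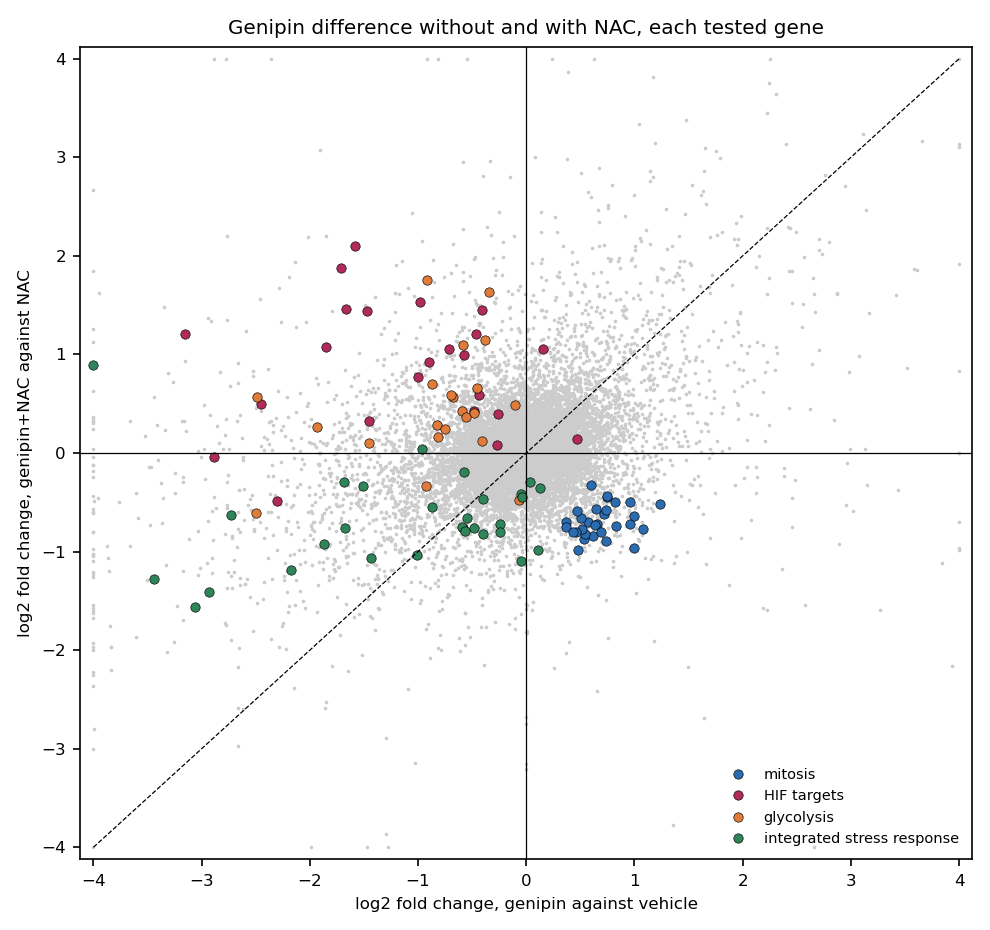
Log2 fold change of each of 13636 tested genes for genipin against vehicle (horizontal axis) and for genipin+NAC against NAC (vertical axis), which share no library; the diagonal marks equal differences, and 68 genes beyond 4 on either axis are drawn at its edge. Mitosis genes lie at the lower right, HIF targets and glycolysis at the upper left, and stress response genes mostly at the lower left.

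Cytotoxic genes rose. Of 29 tested effector genes 22 rose and 3 fell, with a median of 0.65. The granule genes carried the largest rises: Gzmg (2.14 ± 0.03), Gzmd (2.10 ± 0.03), Gzme (2.08 ± 0.03), Gzmf (1.48 ± 0.03) and Gzmc (1.35 ± 0.02). These granzymes lie in a cluster of near-identical genes, so the split of reads between them is uncertain. Gzmd was at 1057, 1065 and 1077 CPM with both compounds, 253, 248 and 246 with NAC alone, 1565, 1591 and 1608 with genipin alone and 1214, 1255 and 1290 with vehicle. The T-box factor Eomes (0.97 ± 0.04) and the interferon regulatory factor Irf8 (0.50 ± 0.03) rose, and so did the shared IL-2 and IL-15 receptor chain Il2rb (0.85 ± 0.03). The IL-2 receptor alpha chain Il2ra (-0.56 ± 0.03), the adhesion receptor Cd44 (-0.39 ± 0.04) and the transcription factor Irf4 (-0.32 ± 0.03) fell. Of the 15 genes of the IL-2 receptor and STAT5 pathway 7 rose, with the kinases Jak1 (0.65 ± 0.03) and Pim2 (0.81 ± 0.05), and 6 fell. The called share of this pathway was 86.7% (median 0.037), against 53.1% of all genes.

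Naive and memory genes leaned the other way, with 13 of 22 lower and 6 higher (median -0.19). Tcf7 was at 35.1, 31.9 and 33.1 CPM with both compounds, 91.9, 86.02 and 86.4 with NAC alone, 2.51, 2.99 and 3.57 with genipin alone and 5.87, 6.34 and 7.61 with vehicle. Tcf7 (ENSMUSG00000000782.15, chromosome 11, 52252371 to 52283014), which encodes the memory-associated factor TCF-1, fell (-1.40 ± 0.07), but its level with both compounds stayed above those of the groups without NAC. The homing receptor Ccr7 (-0.47 ± 0.04) fell, and so did Nsg2 (-1.25 ± 0.09) and Myb (-0.46 ± 0.05). The higher members included Eomes, Ly6c2 (0.87 ± 0.04), Cd28 (0.47 ± 0.04), Foxo1 (0.40 ± 0.04) and Bach2 (0.30 ± 0.06), the last not called with the effective length offset.

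Inhibitory receptors were higher. Of 17 tested genes of the exhaustion list 13 rose and 3 fell (median 0.46). Besides Pdcd1 the rises included Cd244a (1.79 ± 0.04), Havcr2, which encodes TIM-3 (1.60 ± 0.04), Cd160 (1.28 ± 0.07) and the ectonucleotidase Entpd1 (0.79 ± 0.03). Havcr2 was at 228, 213 and 202 CPM with both compounds, 68.7, 71.9 and 70.8 with NAC alone, 234, 221 and 219.5 with genipin alone and 171, 169.6 and 169 with vehicle. The falls were Btla (-1.14 ± 0.14), Nr4a1 (-0.997 ± 0.07) and Tox (-1.11 ± 0.19), the last at low counts. Costimulatory receptors rose in 7 of 15 tested cases, with Icos (0.39 ± 0.03) and Tnfrsf9 (0.39 ± 0.03) among them, and fell in 3. The called share of this list was 66.7% (median 0.13), against 53.1% of all genes.

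Signalling from the T cell receptor was represented by 2 lists. Of 22 genes of the receptor complex and its proximal kinases 16 rose and 2 fell, by small steps (median 0.16): the CD3 chains Cd3g (0.80 ± 0.03), Cd3e (0.53 ± 0.03) and Cd3d (0.44 ± 0.03) rose, and Cd8a (-0.28 ± 0.03) and the adaptor Lat (-0.28 ± 0.03) fell. Without normalization factors 4 of the 22 were called lower. Of 28 genes induced by the receptor 18 rose and 6 fell (median 0.36). Egr3 was at 19.3, 20.8 and 17.8 CPM with both compounds, 2.62, 2.19 and 2.59 with NAC alone, 19.95, 19.2 and 21.5 with genipin alone and 24.4, 25.3 and 26.8 with vehicle. Egr3 was lowest with NAC alone. The ERK feedback genes Dusp6 (0.84 ± 0.03), Dusp5 (0.54 ± 0.03) and Spry2 (1.44 ± 0.08) and the AP-1 member Fosl2 (0.80 ± 0.03) rose, while Batf3 (-1.11 ± 0.07), Nr4a1 and Fos (-0.76 ± 0.12) fell. Without NAC 20 of the 28 were lower with genipin, and the interaction was called higher for 21. In the NF-kB list 9 of 15 rose (4 without normalization factors), with Traf1 at 0.57 ± 0.03, and the inhibitor Nfkbia (-0.48 ± 0.05) and the subunit Relb (-0.29 ± 0.07) fell.

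Of 8 tested chemokines 6 rose and none fell, with a median of 1.70. Ccl4 (1.45 ± 0.09), Ccl3 (0.97 ± 0.13) and Xcl1 (1.13 ± 0.15) rose with Ccl5. Ccl1 was at 0.172, 0.257 and 0.392 CPM with both compounds and at 0, 0 and 0 CPM with NAC alone. Of the 2 groups Ccl1 was thus detected with both compounds and not with NAC alone, where a count of 0 allows up to 0.144 CPM, at levels too low for a fold to be given. Among 11 tested chemokine receptors 4 rose, among them Cxcr6, Ccr1 (1.60 ± 0.08) and Ccr2 (1.08 ± 0.04), and 4 fell, namely Ccr7, Ccr4 (-1.07 ± 0.08), Cxcr5 (-1.33 ± 0.24) and Cxcr4 (-0.28 ± 0.07). The called share of these receptors was 72.7%, against 53.1% of all genes. Ccr1 was at 17.1, 14.6 and 15.4 CPM with both compounds and at 4.78, 5.36 and 5.33 CPM with NAC alone. Ccr1, which binds Ccl5, thus rose together with that ligand, whereas Ccr7 and Cxcr5, which guide cells within lymphoid tissue, fell. Cytokines were divided, 6 higher and 7 lower of 14 tested, with 92.9% called against 53.1% of all genes. Spp1, which encodes osteopontin (1.86 ± 0.04), Il10 (1.17 ± 0.11), Ltb (0.56 ± 0.06) and Ifng (0.29 ± 0.04) rose, and Il24, Lif (-1.37 ± 0.04), Lta (-1.04 ± 0.06) and Tgfb1 (-0.38 ± 0.05) fell. Spp1 was at 988, 928 and 936 CPM with both compounds, 261, 266 and 259 with NAC alone, 599, 586 and 553 with genipin alone and 733, 683 and 693 with vehicle. For Spp1 the values with NAC alone were the lowest of the 4 groups. Of 13 genes of TGF-beta signalling 8 fell, including the receptor chain Tgfbr3 (-1.20 ± 0.09), and 2 rose, the receptor chain Tgfbr2 (0.54 ± 0.03) and the repressor Skil (0.75 ± 0.04). The called share of this list was 76.9% (median -0.22), against 53.1% of all genes.

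Read per library, the level of a list is the mean log2 difference of its members from the mean of the 3 NAC libraries, and this puts the genipin+NAC cells beside vehicle without a test. For mitosis genes the genipin+NAC libraries were at -0.73 to -0.65 and the vehicle libraries at -0.64 to -0.62, so both lay below NAC alone, while genipin alone was at 0.051 to 0.064. Integrated stress response genes were at -0.71 to -0.64 with both compounds, -0.72 to -0.62 with vehicle and -1.80 to -1.77 with genipin alone. HIF targets were at 0.85 to 0.88 with both compounds and at -0.06 to -0.043 with vehicle, so here the genipin+NAC libraries stood above all others. Effector genes were at 0.66 to 0.72 with both compounds and at 0.91 to 0.95 with vehicle, and thus the libraries with both compounds lay between NAC alone and the groups without NAC.

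**Figure D4:**
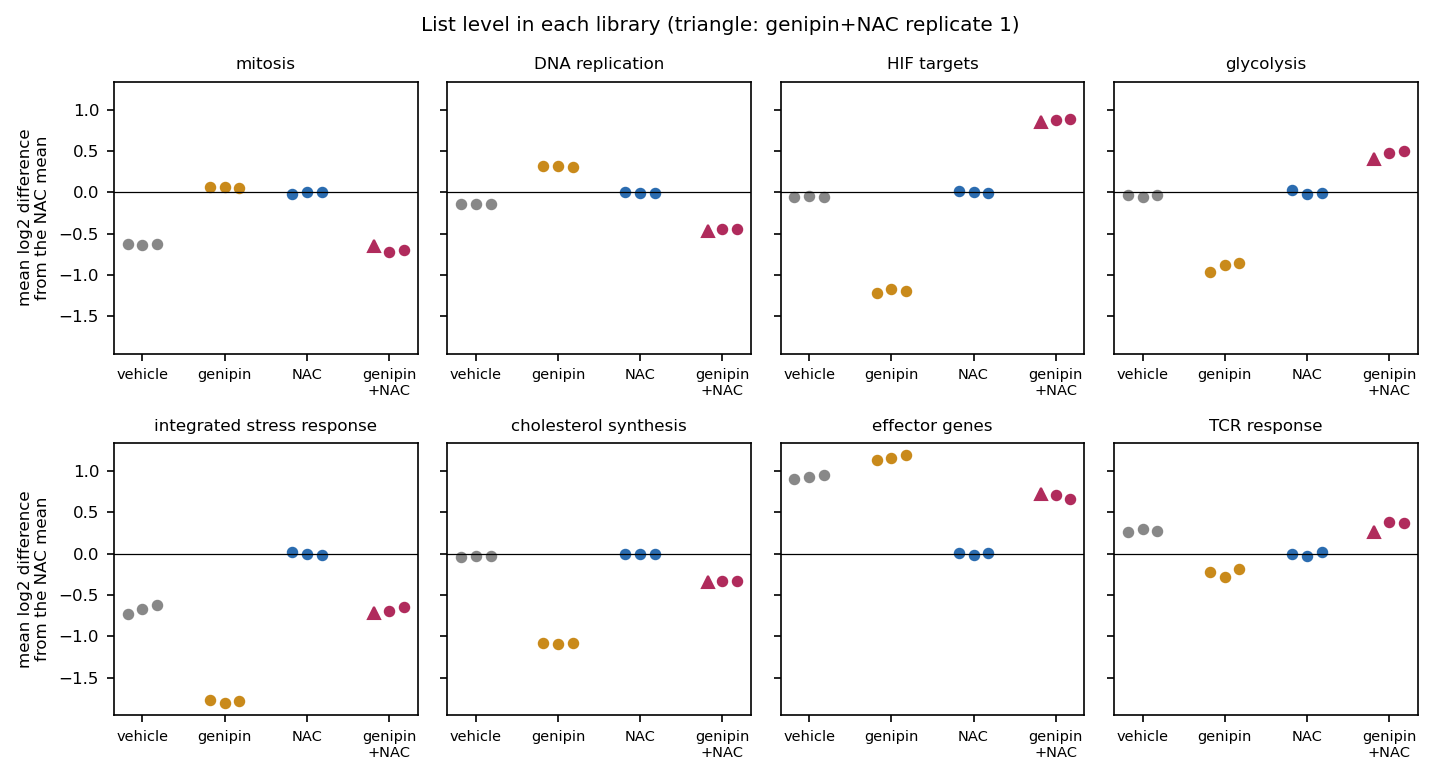
Mean log2 difference of the tested members of 8 gene lists from the mean of the 3 NAC libraries, in each of the 12 libraries; each point is 1 library. Replicate 1 of the genipin+NAC group is drawn as a triangle and lies within 0.112 of the other 2 on this scale in the 8 lists.

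Interferon-response genes rose in 17 of 30 cases and fell in 4 (median 0.32). The antiviral GTPase Mx1 (1.16 ± 0.05), the factors Irf7 (1.06 ± 0.07) and Irf9 (0.66 ± 0.04) and Rtp4 (1.44 ± 0.09) rose, and Stat2 (-0.59 ± 0.05) and the deconjugase Usp18 (-0.89 ± 0.08) fell. Of 21 genes of the interferon-gamma list 11 rose and 4 fell, with the GTPases Tgtp2 (0.91 ± 0.05) and Irgm1 (0.62 ± 0.05) against the receptor chain Ifngr2 (-1.29 ± 0.11), and 2 were called lower without NAC replicate 1. Tgtp1 and Tgtp2 are near-identical, so their reads may be shared. Class I antigen presentation rose by small steps in 12 of 16 genes and fell in none (median 0.16), for example H2-D1 (0.30 ± 0.03), H2-K1 (0.19 ± 0.03) and the transporter Tap2 (0.29 ± 0.04). Without normalization factors 2 of the 16 were called lower, and 1 with the effective length offset. Integrin chains rose in 9 of 14 cases, with Itgax (1.97 ± 0.09), Itgam (1.74 ± 0.08), Itga1 (2.30 ± 0.12) and Itgb3 (1.44 ± 0.03), and 3 fell, Itgae, Itgb7 (-0.33 ± 0.04) and Itga5 (-0.37 ± 0.14), the last not called without genipin+NAC replicate 2 (adjusted p = 0.128) or NAC replicate 1 (0.203), or with the effective length offset. Serpins rose in 8 of 11 tested cases, among them the granzyme inhibitor Serpinb9 (0.68 ± 0.04) and Serpinb6b (0.69 ± 0.03), and fell in 3, or in 1 without genipin+NAC replicate 3 or without NAC replicate 2.

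Redox genes did not move in 1 direction. Of 23 tested NRF2 targets and regulators 5 rose and 7 fell, with a median of -0.018. The called share was 52.2%, near the 53.1% of all genes. The rises numbered 8 without genipin+NAC replicate 1 and 3 without NAC replicate 2. Srxn1 (0.78 ± 0.07), which repairs peroxiredoxins, and Sqstm1 (0.36 ± 0.03) rose, and the factor Nfe2l2, which encodes NRF2 (-0.82 ± 0.08), and the thioredoxin reductase Txnrd1 (-0.35 ± 0.04) fell. Of 24 other glutathione and peroxide enzymes, of which 58.3% were called, 9 rose, with Glrx at 0.60 ± 0.03 and the thioredoxin-binding Txnip at 0.47 ± 0.02, and 5 fell, with Prdx6 at -0.34 ± 0.03 and the mitochondrial dismutase Sod2 at -0.34 ± 0.04. Those falls numbered 8 without normalization factors, 3 without genipin+NAC replicate 2, and 2 without genipin+NAC replicate 3 or NAC replicate 3. Of 3 tested metallothioneins, which bind zinc and copper, 2 rose and 1 was not called. Mt2 was at 65.8, 71.1 and 72.5 CPM with both compounds, 38.7, 38.5 and 35.5 with NAC alone, 261, 269 and 269 with genipin alone and 224, 243 and 238 with vehicle. The 2 that rose were Mt2 (0.90 ± 0.05) and Mt1 (0.79 ± 0.06), whose levels with both compounds lay between NAC alone and the groups without NAC. Of 16 genes of zinc transport and sensing 7 rose and 4 fell, 68.8% called against 53.1% of all genes. The 4 that fell were importers of the Slc39 family: Slc39a10 (-0.75 ± 0.06), Slc39a6 (-0.53 ± 0.04), Slc39a8 (-0.40 ± 0.08) and Slc39a7 (-0.27 ± 0.04). Slc39a1 (0.40 ± 0.04), of the same family, was higher.

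Most heat shock and chaperone genes fell. Of 20 heat shock genes 13 fell and 3 rose (median -0.29), with the co-chaperones Stip1 (-0.49 ± 0.03) and Fkbp4 (-0.48 ± 0.03) and the mitochondrial chaperonin Hspd1 (-0.46 ± 0.05) lower and Dnajb4 (0.45 ± 0.06) higher. Of 22 genes of the unfolded protein response of the endoplasmic reticulum 14 fell and 2 rose (median -0.17), led by the chaperones Hyou1 (-0.62 ± 0.03) and Pdia6 (-0.33 ± 0.03). The rises numbered 1 without NAC replicate 1, without normalization factors or with the effective length offset. Without NAC 14 of these 22 were higher with genipin, and 17 had an interaction called lower. Of 25 p53 targets 13 fell and 4 rose (median -0.15): the apoptosis nuclease Aen (-0.75 ± 0.04), the kinase Plk2 (-0.92 ± 0.06) and Gtse1 (-0.96 ± 0.04), itself a mitotic gene, were lower, and the antiproliferative Btg2 (0.62 ± 0.04) was higher. The called share of the p53 targets was 68%, against 53.1% of all genes. Of 13 tested BCL2 family members 6 rose, including the survival genes Bcl2a1d (0.995 ± 0.08), Bcl2a1b (0.99 ± 0.04) and Mcl1 (0.42 ± 0.03) and the death gene Bcl2l11 (0.35 ± 0.05), and Bid (-0.34 ± 0.06) and Bcl2 (-0.16 ± 0.03) fell, with 4 called lower without normalization factors. The called share of the BCL2 family was 61.5%, against 53.1% of all genes. The Bcl2a1 copies are near-identical, so their separate counts are uncertain.

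Mitochondrial genes gave a mixed picture. Of 13 respiratory genes encoded in mitochondrial DNA 10 rose and none fell, with a median of 0.33, for instance mt-Nd4 (0.39 ± 0.04) and mt-Cytb (0.33 ± 0.04). Mitochondrial transcripts made up 1.81% of counts in genipin+NAC replicate 1, 1.63% and 1.63% in replicates 2 and 3, and 1.59%, 1.61% and 1.64% in the NAC libraries. Without genipin+NAC replicate 1, 8 of the 13 were called higher and 1 lower, with a median of 0.27; 1 was also called lower without NAC replicate 2 or without normalization factors. Of 39 nuclear-encoded respiratory genes 10 rose and 8 fell, a share below the 53.1% called over all genes. Of 39 mitochondrial ribosomal proteins 4 rose and 11 fell, 38.5% called. Without normalization factors the rises of the mitochondrial ribosome numbered 1. In that setting the falls numbered 15 of 39 and 21 of 39, and those of the mitochondrial ribosome 6 without NAC replicate 2 and 7 without NAC replicate 3. Of 28 tested mitochondrial carriers 7 rose and 11 fell, 64.3% called against 53.1% of all genes. The folate carrier Slc25a32 (-0.73 ± 0.07), the pyrimidine nucleotide carrier Slc25a33 (-0.81 ± 0.11) and the citrate carrier Slc25a1 (-0.46 ± 0.04) were lower, and Slc25a45 (0.60 ± 0.06) was higher.

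Set side by side, the genipin difference with NAC and that without NAC share no library, and without NAC 61.0% of all genes were called. Of the 3632 genes called higher with NAC, 1599 were also higher without it, 929 were lower and 1104 were not called. Of the 3607 called lower with NAC, 1617 were lower without it too, 921 were higher and 1069 were not called. Calls in the same direction thus made up 44.03% of the rises and 44.8% of the falls with NAC, and 39.2% of the 4080 rises and 38.2% of the 4232 falls without it. The interaction itself was called for 7008 genes (51.4%), 3733 higher and 3275 lower, or 2618 higher and 4806 lower without normalization factors. Among the genes with the largest interactions by the naming rule, the transglutaminase Tgm2 was nearly lost with genipin alone and present with both compounds. Tgm2 was at 30.01, 29.8 and 28.1 CPM with both compounds, 19.3, 18.7 and 18.8 with NAC alone, 0.232, 0 and 0.0365 with genipin alone and 3.72, 3.97 and 4.25 with vehicle. Its interaction was 5.99 ± 0.31 (7.94 without genipin replicate 1), while the genipin difference with NAC was 0.63 ± 0.08. With so few counts in the genipin libraries this fitted interaction depends on the prior count, and the library at 0 allows up to 0.135 CPM. In the opposite direction Itgae (-6.09 ± 0.21), Asb2 (-3.81 ± 0.15), Hpgds (-2.92 ± 0.17) and Serpina3g (-2.16 ± 0.10) had the most negative interactions by the naming rule, followed by cell cycle genes such as Plk1 (-1.96 ± 0.06) and Cdc6 (-1.83 ± 0.08).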

How the data were processed

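RNA of 12 libraries, 4 groups of 3 assigned by the labels, had been depleted of ribosomal RNA and prepared with a stranded kit, per the labels. The submitters' processing notes name mm10 and the tools RSEM 1.3.1, STAR 2.7.0f, cutadapt 1.18 and bcl2fastq, without a role for each. The authors deposited per-library gene tables with expected counts and TPM (length-scaled abundance) and effective lengths, per the file headers. All 55450 gene IDs matched GENCODE mouse release 21, the source of coordinates. Deposited TPM values were read and not used for a result.

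Expected counts were rounded, filtered with filterByExpr and scaled by TMM (factors 0.961 to 1.05) in edgeR 4.0.16 under R 4.3.3. All 12 libraries entered 1 quasi-likelihood fit with a mean for each group (8 residual degrees of freedom), and p-values were adjusted by Benjamini and Hochberg over 13636 genes. The SE is the absolute log2 fold change over the square root of F. A library total of 20838894 counts puts 3 counts, the limit for a gene with none, at 0.144 CPM. The 57 lists (992 of 1054 genes tested) and the comparison were chosen with earlier results of these data known. Genes named were Ucp2, the 15 largest rises and falls among called genes with a mean of at least 5 CPM and no overlap between the groups (which holds for 56.7% of all tested genes), up to 5 called members of each list in each direction by p, and the 8 largest interactions in each direction. The interactions were ranked among called genes with a mean of at least 5 CPM over the 12 libraries. Both rankings left out predicted genes, pseudogenes, and ribosomal, small nuclear and small nucleolar RNAs. Alternatives were RLE, no factors, DESeq2 1.42.0, limma-voom (limma 3.58.1), filters, stricter thresholds, glmTreat, length offsets, fewer groups, the block and each library left out. The steps were tested on simulated data. Some genes that the rule names are not reported here.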

Additional observations from a re-analysis of the deposited data

Results flagged for a closer look

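The genipin difference with NAC was unlike that without NAC for 7008 genes by the interaction test, and 1850 of these were called in opposite directions in the 2 settings. Of 245 of the genes named in the text, 214 had such a call. Among the genes with the largest positive interactions by the naming rule, on the log2 scale, were Tgm2 (5.99), Nos2 (4.97), Mgarp (4.36), Plcxd1 (4.26), Me1 (4.13), Arrb1 (3.98) and H2-Ob (3.91). Those with the most negative by that rule were Itgae (-6.09), Asb2 (-3.81), Hpgds (-2.92), Serpina3g (-2.16), Plk1 (-1.96), Depdc1b (-1.92), Kif20a (-1.85) and Cdc6 (-1.83). H2-Ob, a class II related chain, was not called in the genipin difference with NAC (-0.18 ± 0.11), so its interaction reflects the difference without NAC (-4.09 ± 0.27), where its mean level with genipin alone was 0.154 CPM and the fitted value depends on the prior count. With 3 libraries in each group no library was tested as an outlier.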

How the results depend on the processing

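The choice of normalization, test, filter or fit left the number of calls within 1.5 times of the value reported: the genes called between genipin+NAC and NAC ranged from 5694 to 7383 under the settings that kept a test against no change, and leaving out each library in turn gave 6528 to 7222. Asking for a size as well lowered all counts. For genipin+NAC against NAC a 2-fold change left 805 genes, 468 higher and 337 lower, and a test against a 1.5-fold change (glmTreat) left 832, 464 higher and 368 lower. For the interaction a 2-fold change left 1345 genes, 917 higher and 428 lower, and a test against a 1.5-fold change (glmTreat) left 1431, 932 higher and 499 lower. For genipin against vehicle a 2-fold change left 1336 genes, 424 higher and 912 lower, and a test against a 1.5-fold change (glmTreat) left 1473, 517 higher and 956 lower. Ucp2 kept its log2 fold change of 0.17 but missed a 2-fold change and the test against 1.5-fold (adjusted p = 1). It was 0.088 (adjusted p = 0.0308) without normalization factors, and without single libraries it lay between 0.14 and 0.22. With the replicate number as a block (replicate block) 7152 genes were called for genipin+NAC against NAC, 6958 for the interaction and 8246 for genipin against vehicle. Same-numbered libraries correlated between -0.076 and 0.045 over 18 pairs in their deviations from the group means, and the best partner of a library had its own number in 3 of 12 cases, so the numbers gave no sign of pairing. The median of the dendritic cell markers changed sign, to 0.32, with a filter at a mean of 5 CPM, which leaves fewer members. With an offset for effective length the value of Max turned negative (-0.097, not called), and without normalization factors so did the value of Odc1 (-0.014, not called) and the interaction of Il24 (-0.067, not called). Depth limits the low genes: a gene with no counts in the smallest library could still have up to 0.144 CPM. The interaction could not be fitted with the compared groups alone, since it uses all 4.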

Other observations

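Some lists not described above moved as follows. Of 20 lysosomal genes 8 rose, with the proteases Ctsd (0.66 ± 0.03), Ctsa (0.52 ± 0.04) and Ctsc (0.50 ± 0.04), and 4 fell (8 without normalization factors), with Ctss (-0.66 ± 0.04) and Ctsz (-0.43 ± 0.04). The median of this list was -0.00087, and 60% of it was called, against 53.1% of all genes. Ctsd was at 1232, 1291 and 1291 CPM with both compounds and at 808, 808 and 797 CPM with NAC alone. Of 20 autophagy genes 12 rose (6 without normalization factors) and 2 fell (median 0.16), with 1 fall without NAC replicate 3. Examples of the rises were the LC3 gene Map1lc3b (0.36 ± 0.03) and Gabarapl2 (0.37 ± 0.05). Of 14 tested iron genes 6 fell and 2 rose (1 without normalization factors), with the transferrin receptor Tfrc at -0.56 ± 0.04 and the ferritin heavy chain Fth1 at -0.27 ± 0.04. The called share of the iron list was 57.1%, near the 53.1% of all genes, and its median -0.048. With an offset for effective length 3 iron genes were called lower. Of 11 abundant noncoding RNAs 2 rose and 5 fell (median -0.083), with 3 falls without NAC replicate 1. The called share of these RNAs was 63.6%, against 53.1% of all genes. The rises were the nuclear RNAs Malat1 (1.05 ± 0.05) and Neat1 (1.02 ± 0.04), and the falls included the small nucleolar RNA host genes Snhg12 (-0.38 ± 0.06) and Snhg1 (-0.25 ± 0.04). Malat1 was at 549.5, 477 and 490.4 CPM with both compounds, 244, 267 and 219.9 with NAC alone, 255, 261 and 248 with genipin alone and 255, 241 and 237 with vehicle. For Malat1 the genipin+NAC libraries stood above the other 9, which overlapped.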
